A study of Homo sapiens with 6 samples.

Results

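The ABCA lipid transporters described here are 10 genes of subfamily A of the ATP-binding cassette (ABC) transporters, out of 58735 genes in the deposited tables, and they were taken as the rows whose gene name equals ABCA1, ABCA2, ABCA3, ABCA5, ABCA6, ABCA7, ABCA8, ABCA9, ABCA10 or ABCA12. Of these, 5 genes (ABCA5, ABCA6, ABCA8, ABCA9 and ABCA10) lie side by side on the long arm of chromosome 17, at 17q24, and the other 5 lie on other chromosomes. RNAseq had been performed on C4-2B, a cell line of the LNCaP lineage that models castration resistant prostate cancer (CRPC), and on RC4-2B, a subclone made from it by repeated 72 h exposures to the taxane cabazitaxel (CBZ), with recovery between them, from 0.1 nM up to 20 nM over 4 months. Each line contributed 3 libraries labelled as biological replicates, and values of single libraries are given in the order of replicates 1, 2 and 3, with the parental line C4-2B first. Neither line carries an engineered change, no drug is named for the cells at harvest, and RC4-2B is 1 selected line, so that effects of the selection and of the outgrowth of a particular clone cannot be told apart. The question addressed was which ABCA genes these cells express, and which of them differed between the parental and the resistant line.

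ABCA proteins are large membrane pumps that use ATP to move lipids across or out of membranes. ABCA1 loads cholesterol and phospholipid onto apolipoproteins at the cell surface and is a classic target of the liver X receptors (LXR), ABCA3 fills the lamellar bodies of lung cells with surfactant lipid, ABCA12 supplies ceramide lipids to the skin barrier, and ABCA2, ABCA5 and ABCA7 are linked to lipid handling in endosomes, lysosomes and phagocytic cells. The ABCA5, ABCA6, ABCA8, ABCA9 and ABCA10 genes arose by duplication and form a tandem array. ABCB1, the multidrug pump that the study is about, belongs to another subfamily.

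Within the 17q24 array a single gene, ABCA5, was transcribed at a measurable level in either line. ABCA6, ABCA8, ABCA9 and ABCA10 had 0 counts in each of the 6 libraries. ABCA5 rose in RC4-2B with a log2 fold change of 1.21, a call that was lost in 7 of 17 alternative fits. None of the 5 members on other chromosomes passed the same test. ABCA2, ABCA3 and ABCA7, the most abundant of them, had log2 fold changes between -0.02 and 0.07. These became 0.39 to 0.46 with a correction for GC content. The less abundant ABCA1 and ABCA12 had estimates of 1.31 (standard error 0.60) and 0.75 (standard error 0.31), and their libraries overlapped between the lines.

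The array occupies 460 kb of chromosome 17 in GRCh38, from 68867292 to 69327244, with all 5 genes on the minus strand in the order ABCA8, ABCA9, ABCA6, ABCA10 and ABCA5 along the coordinates. ABCA10 and ABCA5 overlap by 536 bases of their annotated spans, where reads could have been counted for either gene or left out. The bases just upstream of the RefSeq starts are printed because the array holds 1 detected and 4 undetected genes, and ABCA12 is added as a detected gene of another chromosome. Each line holds the 250 bases before the start, 5′ to 3′ on the strand of the gene (GRCh38.p14), with every CG dinucleotide in capitals. The windows are chr17:69327134-69327383 for ABCA5, chr17:69244849-69245098 for ABCA10, chr17:69141896-69142145 for ABCA6, chr17:69060928-69061177 for ABCA9 and chr2:215138627-215138876 for ABCA12, all on the minus strand.
ABCA5: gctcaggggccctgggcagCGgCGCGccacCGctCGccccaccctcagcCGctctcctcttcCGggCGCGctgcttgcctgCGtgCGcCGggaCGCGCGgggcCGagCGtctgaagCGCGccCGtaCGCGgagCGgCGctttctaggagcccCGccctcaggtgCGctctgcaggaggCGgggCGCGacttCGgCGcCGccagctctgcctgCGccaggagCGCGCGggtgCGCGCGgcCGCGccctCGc
ABCA10: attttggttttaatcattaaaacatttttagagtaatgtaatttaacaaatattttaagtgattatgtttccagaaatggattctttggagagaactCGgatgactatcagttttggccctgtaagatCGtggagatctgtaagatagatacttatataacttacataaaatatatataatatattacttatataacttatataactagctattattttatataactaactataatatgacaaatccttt
ABCA6: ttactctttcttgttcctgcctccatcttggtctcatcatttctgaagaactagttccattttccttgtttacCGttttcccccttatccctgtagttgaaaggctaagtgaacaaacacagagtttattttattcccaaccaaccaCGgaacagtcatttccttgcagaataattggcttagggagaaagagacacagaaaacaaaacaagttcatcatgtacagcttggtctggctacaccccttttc
ABCA9: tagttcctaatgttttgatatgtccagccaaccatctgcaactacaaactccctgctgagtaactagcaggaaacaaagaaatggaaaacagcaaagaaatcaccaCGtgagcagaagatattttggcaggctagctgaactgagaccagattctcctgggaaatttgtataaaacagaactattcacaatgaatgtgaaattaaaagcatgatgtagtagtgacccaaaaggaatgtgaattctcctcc
ABCA12: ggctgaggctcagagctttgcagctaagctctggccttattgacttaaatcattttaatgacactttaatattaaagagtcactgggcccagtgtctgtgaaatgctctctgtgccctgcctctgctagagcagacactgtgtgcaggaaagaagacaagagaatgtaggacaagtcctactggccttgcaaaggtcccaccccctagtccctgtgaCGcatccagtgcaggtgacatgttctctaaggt

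The ABCA5 window held 42 CG dinucleotides and had a GC content of 79.2%, more CG than 98.6% of the 35116 promoter windows of the same length, whose median was 11. The ABCA6 and ABCA9 windows held 2 and 1 CG, at a GC content of 40.8% and 39.2%. The printed ABCA10 window held 2 CG at a GC content of 23.6%, and the window of its other RefSeq start held 1. The printed ABCA10 window lies within the annotated span of ABCA5, near the 3′ end of that gene, and the window of the other start does not. In CG count the upstream sequence of the detected gene thus differed from those of 3 of its undetected neighbours in the array. ABCA12, which was detected, held as few CG as these neighbours, with 1 and 2 in its windows. The windows of ABCA1, ABCA3 and ABCA7 held 16, 38 and 25 CG, and those of ABCA2 held 54 and 12. The letters GGGCGG, searched on both strands, occurred 1 time in the ABCA5 window and 0 times in those of ABCA6, ABCA9, ABCA10 and ABCA12, against a share of 42.6% of all windows with at least 1 match. TATAAA, also on both strands, occurred 1 time in the ABCA9 window and in the printed ABCA10 window and 0 times in that of ABCA5, against 10.7% of all windows. It also occurred 1 time in the window of ABCA1, which was detected, and 0 times in those of ABCA2, ABCA3, ABCA6, ABCA7 and ABCA12. GGGCGG occurred 3, 1 and 1 times in the windows of ABCA1, ABCA3 and ABCA7, and 5 and 0 times in those of ABCA2. RefSeq windows were matched for 9 of the 10 members, all but ABCA8.

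Total gene counts per library were 15707134 to 18052517, and a count of 3, used as the floor of detection, equals 0.170 to 0.188 CPM (counts scaled to library size by TMM), for counting error only. The lines were compared on the counts with the quasi-likelihood test of edgeR, with p-values adjusted by the method of Benjamini and Hochberg over 15054 genes and a threshold of 0.05. The RNA is from bulk cultures, in which fewer cells that express a gene and less of its RNA per cell cannot be told apart. Luminal prostate markers were detected for 8 of 8 genes, and their summed level was 3195 to 3346 CPM in C4-2B and 2090 to 2338 CPM in RC4-2B, where 2 of the 8 were lower by this test. Markers of fibroblasts, macrophages, endothelium and keratinocytes did not exceed 3 counts in any library for 4 of 7, 5 of 6, 3 of 4 and 2 of 4 genes, and their summed levels in the 2 lines were 24.5 to 27.9 and 26.8 to 41.3 CPM, 0.114 to 0.358 and 0.114 to 0.563 CPM, 7.47 to 8.14 and 3.70 to 5.07 CPM, and 50.7 to 69.0 and 35.4 to 55.3 CPM, with C4-2B first. COL1A2, DCN, LUM, C1QA, PECAM1, KRT5 and KRT1 were at 0 throughout. RC4-2B replicate 2 stood apart from the other libraries of its line. Its difference from the mean of replicates 1 and 3 followed transcript GC content, with a Spearman correlation of -0.71 over 12541 genes, which share the same 3 libraries and are no replicates. Values without it are given where leaving it out changed a call or moved a named value by over 1.5 times.

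Levels of different genes were compared in FPKM, the deposited counts scaled by gene length and library total, since CPM does not account for length. In C4-2B the order was ABCA2 (14.9 ± 0.819 FPKM, SD, n = 3), ABCA3 (8.89 ± 0.143), ABCA7 (4.45 ± 0.401), ABCA12 (0.462 ± 0.0616), ABCA5 (0.153 ± 0.00698) and ABCA1 (0.0344 ± 0.0265). RC4-2B kept the same order by mean, with ABCA2 at 14.9 ± 2.81 FPKM (SD, n = 3), ABCA3 at 9.51 ± 0.702, ABCA7 at 4.59 ± 1.15, ABCA12 at 0.797 ± 0.354, ABCA5 at 0.362 ± 0.0904 and ABCA1 at 0.0885 ± 0.0455. The libraries of neighbouring genes in this order did not overlap, except for ABCA12 and ABCA5 in RC4-2B, where the lowest ABCA12 library (0.463 FPKM) lay just under the highest ABCA5 library (0.466 FPKM). Of the summed FPKM of the 10 members in a library, ABCA2, ABCA3 and ABCA7 made up 45.7% to 52.1%, 29.5% to 34.4% and 12.9% to 16.6%. ABCA5 contributed 0.525%, 0.537% and 0.529% of it in the parental line and 0.936%, 1.83% and 0.967% in the resistant line. By mean FPKM over the 6 libraries, ABCA2 exceeded 84.8% of protein-coding genes, ABCA12 46.1%, ABCA5 41.0% and ABCA1 33.8%.

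**Figure D1:**
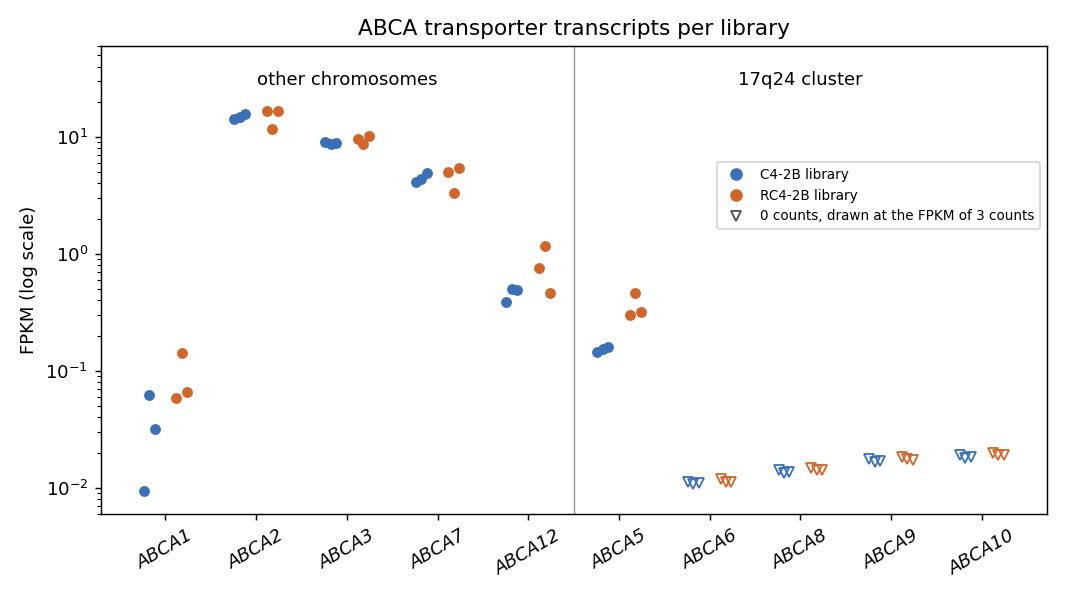
FPKM of each ABCA member (log scale) in the 3 C4-2B libraries (blue) and the 3 RC4-2B libraries (orange), one point per library, with open triangles for libraries with 0 counts drawn at the FPKM that 3 counts would give. ABCA2, ABCA3 and ABCA7 lie between 3.30 and 16.6 FPKM in every library, ABCA5 is the only detected gene of the array, and its RC4-2B libraries all lie above its C4-2B libraries.

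ABCA5 is a little-studied member placed in late endosomes and lysosomes. It is annotated from 69244311 to 69327244 on the minus strand of chromosome 17, and 36, 40 and 41 reads of it were counted in the parental line and 71, 115 and 79 in the resistant line. After scaling these are 2.15, 2.26 and 2.33 CPM against 4.44, 6.56 and 4.64 CPM. The lines did not overlap, and RC4-2B replicate 2 was the highest library. The mean difference corresponded to a 2.32-fold increase (log2 standard error 0.23, edgeR adjusted p = 0.0402). Without RC4-2B replicate 2 the log2 fold change was 1.01, at an adjusted p of 0.0101 from the same edgeR test. The call was lost when any C4-2B library or RC4-2B replicate 3 was left out, with adjusted p-values from edgeR of 0.222, 0.198 and 0.175 without C4-2B replicates 1, 2 and 3 and of 0.101 without RC4-2B replicate 3, and its log2 fold change in these 4 fits was 1.18 to 1.29. With at most 115 counts in a library, ABCA5 was a low-abundance transcript in both lines.

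The undetected genes of the array set a second contrast. ABCA6, ABCA8, ABCA9 and ABCA10 were at 0 counts in 3 of 3 C4-2B and 3 of 3 RC4-2B libraries, so no fold change between the lines can be given for them. For these gene lengths 3 counts in a library correspond to between 0.0107 and 0.0200 FPKM. Per length, ABCA5 in RC4-2B was therefore at least 31.6-fold higher than ABCA6, at least 25.1-fold higher than ABCA8, at least 20.4-fold higher than ABCA9 and at least 18.8-fold higher than ABCA10. In C4-2B the same bounds were 11.1-fold for ABCA8, 9.02-fold for ABCA9 and 8.29-fold for ABCA10, and the bound for ABCA6 was above these. The increase of ABCA5 in RC4-2B was thus not accompanied by detectable transcripts of the genes next to it in the array. The antisense gene ABCA9-AS1, which overlaps ABCA8 and ABCA9, had 1 count in RC4-2B replicate 1 and 0 elsewhere.

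Of the 10 members, 6 had enough counts to be tested, and 1 of these 6, ABCA5, was past the threshold, against 1.98% of all genes tested (1.08% higher and 0.903% lower in RC4-2B). ABCA5 was also the one tested member whose groups did not overlap, against 34.1% of all genes tested in either direction. The cluster median is that of ABCA5 alone, 1.21, since 1 of its 5 genes could be tested. The 5 members on other chromosomes had a median log2 fold change of 0.07, with 4 of 5 above 0, against a median of 0.01 and a share above 0 of 50.7% over all genes tested. This median was 0.23 without RC4-2B replicate 2 and 0.46 with the correction for GC content introduced further on, and the difference between ABCA5 and the other members was not tested.

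ABCA12 is the ceramide lipid transporter of keratinocytes. Of the 4 keratinocyte markers KRT5 and KRT1 were at 0. The sum of the list, 50.7 to 69.0 CPM in C4-2B and 35.4 to 55.3 CPM in RC4-2B, thus came from KRT14 and KRT10 alone. Their single levels were not compared, and this sum does not identify a cell type. ABCA12 read 4.12, 5.32 and 5.12 CPM in the parental line against 8.00, 11.7 and 4.82 CPM in the resistant line. Replicates 1 and 2 of RC4-2B were above all C4-2B libraries, but replicate 3 lay among them. Its estimate of 0.75 (log2, standard error 0.31) did not pass the edgeR test, with an adjusted p of 0.215 and an unadjusted p of 0.0402. Leaving out RC4-2B replicate 2 lowered it to 0.39.

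ABCA1, the cholesterol efflux pump, was close to the floor. It had 2, 14 and 7 counts in the parental line and 12, 30 and 14 in the resistant line, or 0.119, 0.793 and 0.398 CPM against 0.750, 1.71 and 0.822 CPM. The groups overlapped, and the estimate of 1.31 for its log2 fold change carried a standard error of 0.60 (edgeR adjusted p = 0.247). Its value without RC4-2B replicate 2 was 0.83 and without C4-2B replicate 2 it was 2.04, so that single libraries moved it by more than they moved ABCA5. No difference of ABCA1 was detectable in these libraries.

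ABCA2, which is abundant in myelinating cells, read 182, 191 and 201 CPM in the parental line against 213, 143 and 210 CPM in the resistant line. ABCA7, a phagocytosis-linked relative of ABCA1, read 38.2, 41.0 and 45.3 CPM against 46.8, 29.5 and 50.6 CPM. In both genes RC4-2B replicates 1 and 3 were above all C4-2B libraries and replicate 2 was below all of them. The surfactant transporter ABCA3 read 78.6, 76.5 and 77.2 CPM against 83.5, 73.2 and 87.8 CPM, with replicate 2 again the lowest of the 6. The log2 fold changes were -0.02 (standard error 0.16) for ABCA2, 0.03 (standard error 0.20) for ABCA7 and 0.07 (standard error 0.11) for ABCA3, with adjusted p-values of 0.952, 0.942 and 0.705 from the edgeR test.

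RC4-2B replicate 2 deviated in opposite directions for members of low and of high transcript GC content. The longest transcripts of ABCA5, ABCA12 and ABCA1 have a GC content of 33.2%, 42.6% and 45.5%, and replicate 2 was above the mean of replicates 1 and 3 by 0.53, 0.92 and 1.12 on the log2 CPM scale. The transcripts of ABCA3, ABCA2 and ABCA7 have 60.4%, 63.7% and 64.5% GC, and replicate 2 differed from the same mean by -0.23, -0.56 and -0.72. Among the low-GC members the deviation did not follow GC in order, since ABCA5 had the lowest GC content and the smallest deviation. Among all genes tested, replicate 2 was the highest library for 35.3% and the lowest for 35.5%. A correction that removes the smoothed GC trend from each library left ABCA5 at 1.01 on the log2 scale (edgeR adjusted p = 0.0143) and ABCA12 at 0.60. The same correction moved ABCA2 to 0.40, ABCA3 to 0.39 and ABCA7 to 0.46, with adjusted p-values from edgeR of 0.0578, 0.0786 and 0.0442, so that ABCA7 passed the threshold in that fit and 2 of the 6 tested members were called, against 7.62% of all genes. After it, replicate 2 stood above the mean of replicates 1 and 3 by 0.34, 0.41 and 0.25 for ABCA2, ABCA3 and ABCA7. Without replicate 2 and without the correction, the 3 GC-rich members had log2 fold changes of 0.15, 0.15 and 0.23, none with an adjusted p under 0.05. The values of these members thus lay nearest 0 with replicate 2 included and uncorrected, whereas ABCA5 kept its direction and its call in all these fits. What set replicate 2 apart was not tested.

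**Figure D2:**
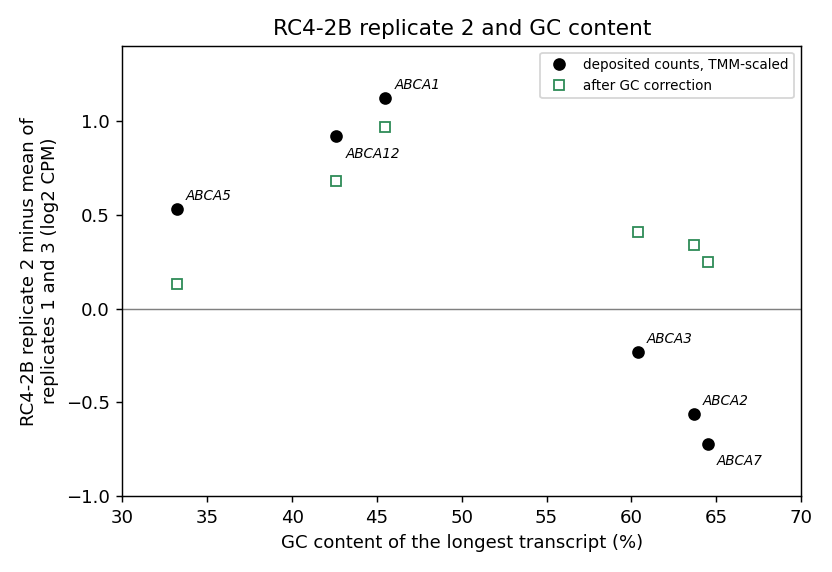
Deviation of RC4-2B replicate 2 from the mean of RC4-2B replicates 1 and 3 (log2 CPM) against the GC content of the longest transcript (percent) for the 6 tested members, before (black circles) and after (open green squares) the GC correction. The 3 members under 50% GC lie above 0 and the 3 members over 60% GC lie below 0 before the correction, and all 6 lie above 0 after it.

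**Figure D3:**
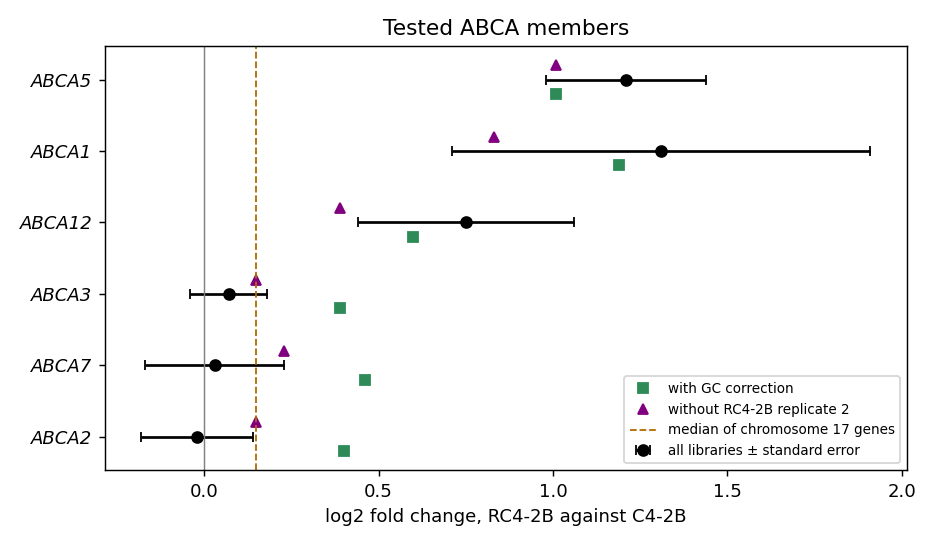
Log2 fold change of RC4-2B against C4-2B for the 6 tested members, with standard error bars for the fit of all libraries (black) and the values with GC correction (green) and without RC4-2B replicate 2 (purple). ABCA5 stays at or above 1.01 in all 3, while ABCA2, ABCA3 and ABCA7 move from near 0 to between 0.39 and 0.46 with the correction, and the dashed line marks the median of chromosome 17 genes, 0.15.

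The surroundings of the array were examined next, because genes of chromosome 17 were more often higher in RC4-2B than genes in general. Of the 944 tested genes of this chromosome 66.7% had a log2 fold change above 0, against 50.7% of all genes, and their median was 0.15, which became 0.22 without RC4-2B replicate 2 and 0.23 with the GC correction. ABCA5 had the log2 fold change of rank 12 among these 944 genes. Of the 54 annotated genes that start within 1 Mb of the array, beside its own 5 members, 15 were tested, with a median of 0.38 and 13 of 15 above 0. None (0 of 15) had an adjusted p under 0.05 by edgeR. An unadjusted p under 0.05 was reached by 8 of the 15, by 279 of the 944 genes of chromosome 17 and by 21.4% of all genes tested. In 8 of the 15 the lines did not overlap, each time with RC4-2B higher. The same held for 307 of the 944 genes of chromosome 17 and 2559 of all 15054 genes. Without regard to direction the lines did not overlap for 34.1% of all genes. The part of this regional shift in the ABCA5 value was not tested.

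MAP2K6, a kinase that activates p38 and the nearest tested gene beyond ABCA5, averaged 13.1 ± 1.42 CPM in the parental and 21.3 ± 4.89 CPM in the resistant line (SD, n = 3), at a log2 fold change of 0.70 with an edgeR adjusted p of 0.104. PRKAR1A, a regulatory subunit of protein kinase A and the nearest tested gene beyond ABCA8, averaged 178 ± 4.90 and 233 ± 21.4 CPM, at a log2 fold change of 0.38. WIPI1, an autophagy protein, had a log2 fold change of 0.50 and the lysosomal sulfatase gene ARSG of 0.13. The libraries of the lines did not overlap for MAP2K6, PRKAR1A and WIPI1, and overlapped for ARSG. Leaving out RC4-2B replicate 2 brought 6 of the 15 neighbours past the threshold, all higher in RC4-2B (KPNA2, LINC00674, LRRC37A16P, WIPI1, PRKAR1A and MAP2K6), where 12.5% of all genes were called. In this order their log2 fold changes in that fit were 0.30, 0.54, 0.57, 0.51, 0.36 and 0.50, at edgeR adjusted p-values of 0.0138 to 0.0416. Leaving it out together with the GC correction, an alternative added after the data had been seen, called 5 against 13.3% of all genes. DESeq2 called 2 of the 15 neighbours to which it gave an adjusted p-value, MAP2K6 and LRRC37A16P, against 5.93% of all such genes. Without the filter on low counts edgeR tested 28 neighbours and called the same 2, a share of 7.14% against 4.29% of all genes. KPNA2, LINC00674 and LRRC37A16P are named here because of these counts, after their values had been seen. The largest neighbour value was the 0.96 of LRRC37A16P, which was 0.57 without RC4-2B replicate 2, against 1.21 and 1.01 for ABCA5 in the same fits, a difference between genes that was not tested.

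**Figure D4:**
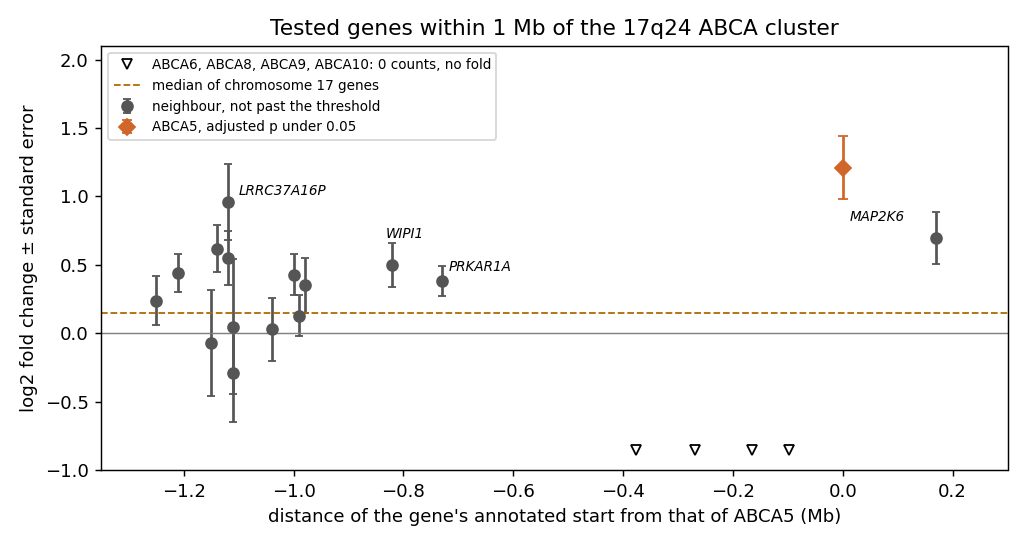
Log2 fold change of RC4-2B against C4-2B with its standard error for ABCA5 (diamond) and the 15 tested genes that start within 1 Mb of the array (circles), by the distance between the leftmost annotated coordinates (Mb). ABCA5 is the highest at 1.21, 13 of the 15 neighbours lie above 0, and triangles mark the 4 genes of the array with 0 counts.

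ABCA1 and its relatives act together with genes that sense, bind and store sterols, and 36 such genes were examined as a list. Of the 26 tested, 2 rose and 0 fell, a share of 7.69% against 1.98% of all genes, and the median log2 fold change was -0.03. GRAMD1C, which encodes a sterol-binding protein at contacts between the endoplasmic reticulum and the plasma membrane, read 3.28, 3.57 and 2.96 CPM in the parental line against 7.75, 9.01 and 5.64 CPM in the resistant line, at a log2 fold change of 1.19 (edgeR adjusted p = 0.0396). SOAT1, the enzyme that esterifies cholesterol for storage, read 80.1, 77.3 and 78.2 CPM against 107, 137 and 115 CPM, at a log2 fold change of 0.61 (edgeR adjusted p = 0.0485). For both genes the lines did not overlap. GRAMD1C lost the call in 5 of the 6 fits that left out a library, with RC4-2B replicate 2 the exception. SOAT1 lost it when any C4-2B library or RC4-2B replicate 3 was left out, and with RLE scaling (edgeR adjusted p = 0.0533).

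The receptors that control ABCA1 did not pass the test. The log2 fold change was -0.01 (standard error 0.20) for NR1H3 (LXR alpha) and -0.37 (standard error 0.24) for NR1H2 (LXR beta). Without RC4-2B replicate 2 these became -0.07 and -0.12. RXRB, a partner receptor, read 58.4, 49.9 and 52.0 CPM against 46.1, 19.6 and 39.3 CPM, without overlap, with an estimate of -0.61 (standard error 0.27) that became -0.32 without RC4-2B replicate 2, the lowest library. ABCG1, another LXR target and sterol exporter, averaged 5.00 ± 0.276 CPM in the parental line against 5.90 ± 1.35 in the resistant line (SD, n = 3). None of these 4 genes passed the edgeR test, and neither did the bile salt pump gene ABCB11 at 0.67, which was 0.30 without RC4-2B replicate 2. NR1H2, NR1H3 and ABCG1 are named for their role, after their values had been seen. APOE, which accepts the exported lipid, had at most 1 count in any library. APOC1, an apolipoprotein of the same gene cluster that was singled out after its values were seen, had 17, 18 and 8 counts in the parental line and 1, 0 and 1 in the resistant line. It was too low to be tested, and against the floor of 3 counts per library its mean was at least 4.65-fold lower in RC4-2B. Without the filter on low counts edgeR gave it an adjusted p of 0.00106.

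A second list held 40 genes of lysosomes and sphingolipid metabolism, the compartment and lipids to which ABCA2, ABCA5 and ABCA12 are tied. Of the 39 tested, 1 rose and 0 fell, a share of 2.56%, close to the 1.98% of all genes, with a median log2 fold change of 0.04. The gene that rose was SPTLC3, which encodes a subunit of serine palmitoyltransferase, the first enzyme of sphingolipid synthesis. It read 1.73, 1.59 and 3.13 CPM in the parental line against 7.94, 14.3 and 8.05 CPM in the resistant line, without overlap, at a log2 fold change of 2.23 (edgeR adjusted p = 0.0203). It lost the call without C4-2B replicate 1, C4-2B replicate 2 or RC4-2B replicate 3, at edgeR adjusted p-values of 0.143, 0.103 and 0.0549. The ceramide synthase gene CERS1 read 3.76, 4.13 and 4.72 CPM against 1.56, 0.627 and 1.70 CPM, without overlap. Its log2 fold change of -1.70 was just outside the threshold (edgeR adjusted p = 0.0510). It passed without RC4-2B replicate 2 (-1.36, edgeR adjusted p = 0.00354) and with the GC correction (-1.06, edgeR adjusted p = 0.0311). The more abundant CERS6 went the other way, at 83.8 ± 10.9 against 135 ± 32.9 CPM (SD, n = 3), without overlap. Its log2 fold change was 0.69 (edgeR adjusted p = 0.0964). CERS6 passed in the same alternative fits (0.47 and 0.49, edgeR adjusted p = 0.00806 and 0.0273). CERS4, at -0.44, passed only without RC4-2B replicate 2 of these fits. CERS2 and CERS5 were at 0.14 and -0.04. SMPD3, a neutral sphingomyelinase, had a log2 fold change of -1.02 (edgeR adjusted p = 0.191), which was -0.64 without RC4-2B replicate 2. NPC1 and LAMP1, classic proteins of the lysosomal membrane, had log2 fold changes of -0.18 and -0.09 and did not pass. They and the ceramide synthase genes other than CERS1 are named after their values had been seen.

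**Figure D5:**
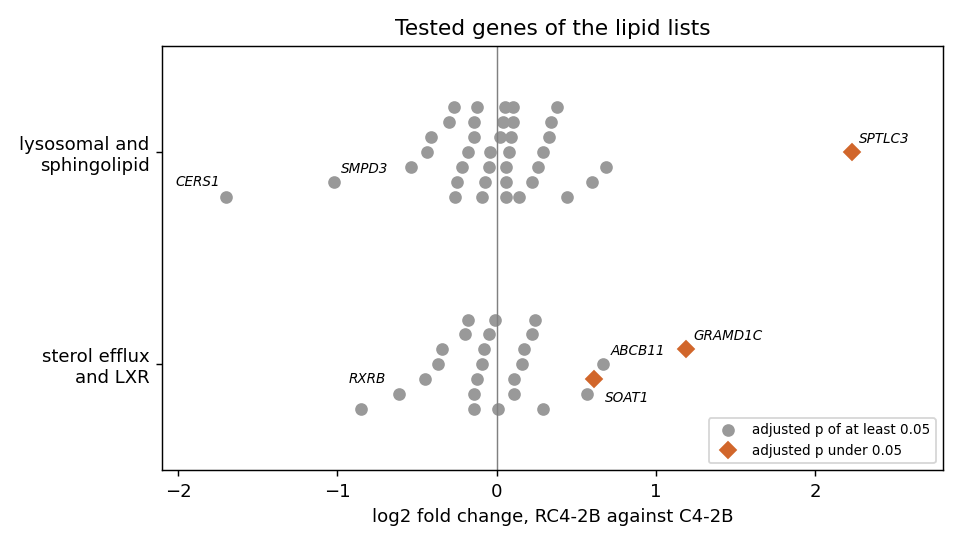
Log2 fold change of RC4-2B against C4-2B for the 26 tested sterol genes and the 39 tested lysosomal and sphingolipid genes, one point per gene, spread vertically for legibility. The genes past the threshold (diamonds) are GRAMD1C at 1.19, SOAT1 at 0.61 and SPTLC3 at 2.23, and both lists are centred near 0.

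The remaining genes of the family add little signal. ABCA4, the retinal transporter, had 5, 4 and 3 counts in the parental line and 3, 1 and 1 in the resistant line, and ABCA13 had 1 count in a single library. The pseudogene ABCA17P averaged 9.26 ± 0.697 CPM in the parental and 8.18 ± 1.74 CPM in the resistant line (SD, n = 3), and differed by -0.18 on the log2 scale (standard error 0.19), or by -0.06 without RC4-2B replicate 2. It overlaps 1597 bases of the ABCA3 span on the opposite strand, so reads of the 2 genes cannot be separated there if the counting ignored strand. For the pseudogene ABCA11P the log2 difference was -0.57 (standard error 0.38), and neither pseudogene passed the edgeR test.

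By the Pearson correlation of log2 CPM over the 6 libraries, the genes most like ABCA5 among 12574 genes were DHX40 on chromosome 17 (0.9980), KIAA1324L on chromosome 7 (0.9978) and TLK2 on chromosome 17 (0.9971). DHX40 read 69.0, 70.2 and 73.0 CPM against 106, 128 and 105 CPM, the same arrangement as ABCA5 with replicate 2 highest. The 6 libraries fall in 2 groups, and 1151 genes had a correlation above 0.9.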

How the data were processed

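RNAseq libraries of C4-2B and RC4-2B (n = 3 each) were analysed. The culture medium is described with 10% charcoal stripped serum and also with 10% fetal bovine serum in the study's methods. The authors deposited raw gene counts and FPKM values (the same counts scaled by gene length and library total) for 58735 genes. The submitters' processing notes name STAR and GRCh38. The counting program, its use of strand, multi-mapped reads and the annotation release are not given in the sources used here, so that reads of paralogs and overlapping genes carry this uncertainty.

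Counts were tested in R 4.3.3 with edgeR 4.0.16 (TMM, filterByExpr with a minimum of 10 counts, glmQLFit and glmQLFTest, Benjamini-Hochberg adjustment over 15054 genes, threshold 0.05) in a model of cell line alone. Tested on simulated data, this fit recovered 198 of 200 genes changed by 2 on the log2 scale among 15054. The simulation held no GC trend and placed no change in the genes of lowest expression. Recovery of smaller changes, such as that of ABCA5, was not tested. DESeq2 1.42.0, limma 3.58.1 on log2(FPKM + 1) or log2(FPKM + 0.1), other scalings and filters, leaving out each library, a replicate block and a GC correction (lowess of span 0.2 on transcript GC from GENCODE 44, known for 99.6% of tested genes) were alternatives. The GC correction without RC4-2B replicate 2 was added after seeing the data. Within groups, chi-square values per gene of replicate pairs were 3.38 to 65.2, and no library was treated as a duplicate. Replicate numbers were not taken to pair the libraries, since deviations of same-numbered libraries correlated at 0.3182, 0.1778 and -0.0691 over 11189 genes.

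The members and lists were chosen with earlier results of these data known. Named were the members, the other ABCA genes, neighbours past the threshold, the 3 tested neighbours nearest to ABCA5 and the 3 nearest to ABCA8, list genes past the threshold, the 3 list genes with the largest changes where log2 CPM averaged 1 or more, and the 3 genes most correlated with ABCA5, from log2(CPM + 0.5). Promoter sequences are from RefSeq (GRCh38.p14).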

Additional observations from a re-analysis of the deposited data

How the results depend on the processing

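The log2 fold change of ABCA5 stayed above 0 in 17 alternatives, between 0.85 and 1.32, with adjusted p-values between 0.00463 and 0.331. It lost the call in 7 of them, namely with the replicate block (1.19, edgeR adjusted p = 0.0759), by limma on log2(FPKM + 0.1) with either filter (0.85 and 0.85, limma adjusted p = 0.204 and 0.331) and in 4 of the 6 fits without a library, whose log2 fold changes ranged from 1.01 to 1.32. In limma on log2(FPKM + 1) it was below the filter. As the median of its cluster ABCA5 was at 0.95 with the GC correction and without RC4-2B replicate 2. ABCA1, ABCA3 and ABCA12 kept their direction wherever tested. ABCA2 turned from -0.02 to 0.40 with the GC correction, 0.40 with the replicate block and GC correction (edgeR adjusted p = 0.0427) and 0.29 with the GC correction and without RC4-2B replicate 2 (edgeR adjusted p = 0.0264), and ranged from -0.11 to 0.15 when a library was left out. ABCA7 turned from 0.03 to -0.005 with the replicate block and ranged from -0.12 to 0.23 when a library was left out, while it passed the threshold with the GC correction (0.46), with the block and GC correction (0.46) and with the GC correction and without RC4-2B replicate 2 (0.38). The median of the members on other chromosomes moved from 0.07 to 0.46, 0.46 and 0.35 in these same 3 fits, and ranged from 0.01 to 0.23 when a library was left out. The causes were not tested.

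The number of genes called, 298 in all, was 902 by DESeq2, 1250 without the filter on low counts, 129 with the replicate block, 1147 with the GC correction, 1206 with both, 2050 with the GC correction and without RC4-2B replicate 2, 104, 98 and 46 in the 3 limma fits, and 44 to 1925 in the fits without a library, where RC4-2B replicate 2 gave the 1925. Of all genes, 1.98% were called at first, 5.93% by DESeq2, 4.29% without the filter and 7.62% with the GC correction. The share was 12.5% without RC4-2B replicate 2, and 13.3% with the GC correction as well. The counts that follow are out of 6 members, 15 neighbours, 26 sterol and 39 lysosomal and sphingolipid genes tested at first. Whether they differ from these shares was not tested. Called members, 1 at first, numbered 0 with the replicate block, 2 with the GC correction, 3 with both, 3 with the GC correction and without RC4-2B replicate 2, 0, 0 and 0 by limma, and 0 to 1 without a library. Called neighbours, 0 at first, numbered 2 by DESeq2, 2 without the filter, 1 with the GC correction, 1 with block and GC correction, 5 with the GC correction and without RC4-2B replicate 2, and 0 to 6 without a library. In a window of 5 Mb they were 7 of 49 tested genes (14.3%), against 1.98% of all genes and 3.50% of those of chromosome 17. Called sterol genes, 2 at first, numbered 1 with RLE scaling, 4 without the filter, 0 with the replicate block (edgeR adjusted p = 0.0599 for GRAMD1C and 0.0798 for SOAT1), 4 with block and GC correction, 6 with the GC correction and without RC4-2B replicate 2, 0, 0 and 0 by limma, and 0 to 6 without a library. Called lysosomal and sphingolipid genes, 1 at first, numbered 2 with RLE scaling, 2 with upper-quartile scaling, 3 by DESeq2, 3 without the filter, 6 with the GC correction, 6 with block and GC correction, 7 with the GC correction and without RC4-2B replicate 2, 0, 0 and 0 by limma, and 0 to 5 without a library. The members ABCA1 and ABCA5 rest on 2 to 115 counts a library, and the part of depth in their lost or missed calls was not tested.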
